A study of Homo sapiens with 4 samples.

Results

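The mRNAs described here encode actins, alpha- and beta-tubulins, beta-thymosins and cofilin, the abundant building blocks of the cytoskeleton and the small proteins that keep actin in its free form. They were measured in extracellular vesicles (EVs) released by PC3 cells, a prostate cancer (PCa) line derived from a bone metastasis. The 10 genes are named by function (ACTB, ACTG1, TUBA1A, TUBA1B, TUBA1C, TUBB, TUBB4B, TMSB4X, TMSB10 and CFL1) and were matched by Ensembl identifier, a step in which no count was used. They were chosen as abundant cytoskeleton genes, with earlier results of these data known. All 10 were found among the 58051 genes of the count tables, of which 19629 are protein-coding. Untreated PC3 cells were kept in medium with exosome-free serum, and their vesicles were isolated with the exoEasy Maxi kit and qEV columns. Stranded total RNA libraries were made from 2 biological replicates. All libraries used here are of this 1 condition, so levels are described within PC3-EVs and no test between conditions applies.

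Actin monomers polymerise into filaments that shape the cell cortex, and alpha- and beta-tubulin pair to form microtubules. Beta-thymosins hold actin monomers in reserve, whereas cofilin severs old filaments and returns monomers to the pool. These genes are among the most strongly transcribed in cultured cells, and ACTB and tubulin genes often serve as reference transcripts. Several have close copies, most of all the alpha-tubulins, and others have processed pseudogenes, so that some reads of their coding parts can be hard to place.

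In total 489170 reads were counted on genes in replicate 1 and 475942 in replicate 2, or 2.33% ± 0.241 (SD, n = 2) of all reads. A further 46.8% ± 1.85 (SD, n = 2) aligned to several places and were set aside, and 35.9% ± 0.671 (SD, n = 2) lay on no listed feature. The strand setting of the counting is not given in the sources used here. If it was opposite to that of the stranded kit, a value under a gene's name would stand for the other strand, and the gene's own reads would lie under an opposite-strand gene or on no feature. At this depth 1 read equals 2.04 and 2.10 CPM (reads per 1000000 reads counted on genes). A count of 0 still allows a level of up to 6.13 and 6.30 CPM, the level of 3 reads. This is a limit on the upper side alone, and the Wilson intervals plotted for a count of 0, which are set for both sides, reach 7.85 and 8.07 CPM. These floors and all intervals cover counting error only, since amplified reads are not independent molecules. Reads that aligned to several places were not counted, so the floors do not limit a gene whose reads cannot be placed singly. Of the epithelial marker genes, KRT8 had 966 and 1088 reads, KRT18 94 and 87 and KRT19 36 and 78. EPCAM had 2 and 26 and CDH1 4 and 14. Among the mesenchymal genes VIM had 130 and 87 reads, CD44 72 and 44 and ZEB1 0 and 22. KLK3, the gene of prostate-specific antigen, low or lost in PC3 cells, had no read, and nor did the blood and liver genes HBB, HBA1, ALB and PTPRC.

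How alike the members are in sequence bears on how well their reads can be placed, so coding sequences were compared first, read from GRCh38 for the Ensembl canonical transcripts. The first 75 coding bases of the 3 alpha-tubulin genes were identical, so that a read lying there has no single place of origin.

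Across their whole coding sequences TUBA1A and TUBA1B were 97.2% identical, TUBA1B and TUBA1C 96.8% and TUBA1A and TUBA1C 95.9%. TUBA1B and TUBA1C shared an unbroken stretch of 326 bases. The actin pair differed at 14 of the first 75 coding bases and was 91.3% identical over 1125 bases, with a longest shared stretch of 59. The start of both is shown, 5′ to 3′ from the start codon, because it holds many of the bases that tell their reads apart, and capitals mark bases that differ between the genes set together.
ACTB: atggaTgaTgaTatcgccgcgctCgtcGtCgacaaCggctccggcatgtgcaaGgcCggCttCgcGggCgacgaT
ACTG1: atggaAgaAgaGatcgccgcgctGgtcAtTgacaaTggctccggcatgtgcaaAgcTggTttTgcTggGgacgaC

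The beta-tubulins TUBB and TUBB4B differed at 9 of the first 75 coding bases and were 84.4% identical, with no shared stretch over 35 bases.

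The coding sequences of the thymosins are short enough to be given whole. They differed at 37 of 132 positions and were 72.0% identical, with no shared stretch over 10 bases, and are shown because, unlike the tubulins, this pair is distinct along its whole length.
TMSB4X: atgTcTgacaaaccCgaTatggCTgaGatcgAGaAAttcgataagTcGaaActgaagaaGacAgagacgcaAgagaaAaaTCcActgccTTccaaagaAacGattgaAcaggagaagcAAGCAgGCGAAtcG
TMSB10: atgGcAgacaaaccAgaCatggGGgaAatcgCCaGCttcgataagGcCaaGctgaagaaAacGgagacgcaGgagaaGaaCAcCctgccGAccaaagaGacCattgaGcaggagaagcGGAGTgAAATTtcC

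Of the 10 mRNAs, 8 had at least 1 read in both replicates, against 21.9% of all protein-coding genes. The same 8 had at least 10 reads in both, which 11.6% of protein-coding genes did. TUBA1A was seen in replicate 2 alone and TUBB in neither, so these members were not abundant in the counts, whatever their level in cells. Together the 10 genes held 1458 reads in replicate 1 and 1077 in replicate 2, 0.444% ± 0.0762 (SD, n = 2) of the protein-coding counts. The actin pair made up 62.6% ± 0.370 (SD, n = 2) of their summed CPM.

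**Figure D1:**
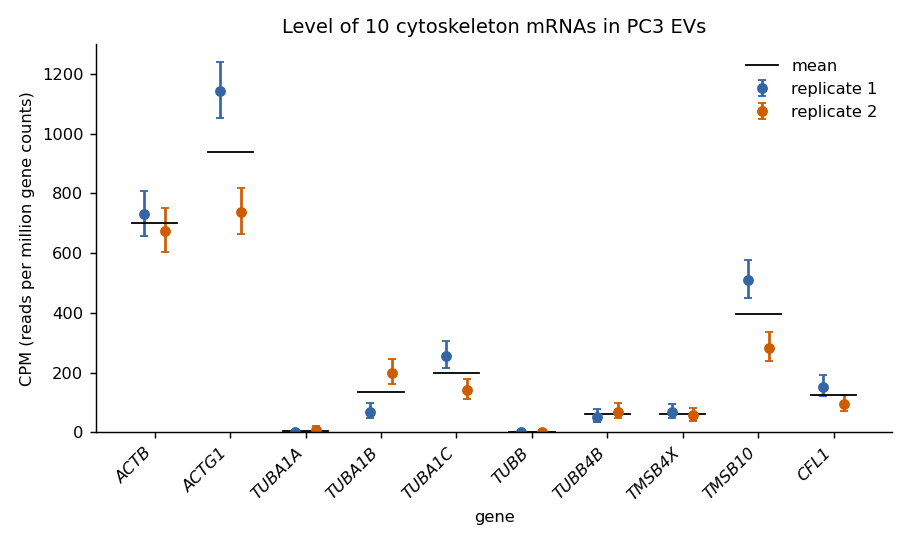
Level of each member in CPM (vertical axis) in replicate 1 (blue) and replicate 2 (orange), with 95% Wilson intervals and the mean as a black line. For ACTG1, TUBA1C and TMSB10 the intervals of replicate 2 lie below those of replicate 1, for TUBA1B above them, and TUBB is at 0.

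ACTG1 encodes cytoplasmic gamma-actin (ENSG00000184009, chromosome 17, 81509413 to 81523847, minus strand) and had the most reads of the members, 559 in replicate 1 and 351 in replicate 2. Its level was 940 CPM ± 287 (SD, n = 2), rank 31 among protein-coding genes by mean CPM. ACTB, which encodes beta-actin (ENSG00000075624, chromosome 7, 5526409 to 5563902, minus strand), had 357 and 320 reads. Its level of 701 CPM ± 40.6 (SD, n = 2) placed it at rank 46. ACTB was the steadier of the pair, with a ratio of replicate 2 to replicate 1 of 0.921 (95% exact interval 0.790 to 1.07), whereas that of ACTG1 was 0.645 (0.563 to 0.739). ACTG1 has a lncRNA gene on the other strand, ENSG00000229848, which shares 67 bases of exon with it and had 0 and 4 reads. No listed gene on the opposite strand overlaps an exon of ACTB. Of the 32 annotated pseudogenes of these genes in the tables, 3 had a read, all of ACTG1, and they held 1 and 17 reads in all.

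The 3 alpha-tubulin genes, whose products pair with beta-tubulin, lie together on chromosome 12. For TUBA1C (ENSG00000167553, plus strand, 49188736 to 49274600) 125 and 67 reads were counted, 198 CPM ± 81.2 (SD, n = 2). TUBA1B (ENSG00000123416, 49127782 to 49131397, minus strand) had 34 and 95 reads, 135 CPM ± 92.0 (SD, n = 2). Per kb of exon TUBA1C was at 57.4 and 31.6 CPM and TUBA1B at 19.4 and 55.9, so that their order changed between the replicates and their means differed by less than either SD. TUBA1A (ENSG00000167552, 49184686 to 49189080, minus strand), best known from developing neurons, had 0 and 4 reads. Its replicate 2 level was 8.40 CPM, just above the floor, and the replicates overlap in their counting intervals. Summed over the 3 genes the level was 325 CPM in replicate 1 and 349 in replicate 2, an SD of 16.8 against 81.2 for TUBA1C and 92.0 for TUBA1B. The SDs of the actin and thymosin sums exceeded those of their members, at 1641 CPM ± 327 and 458 CPM ± 167 (SD, n = 2). The means of these sums are also higher, so their SDs are not on the scale of those of the members. What lies behind the smaller SD of the alpha-tubulin sum was not tested.

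TUBB, which encodes a widely used beta-tubulin isotype (ENSG00000196230, chromosome 6, 30717435 to 30725538, plus strand), had no read in either replicate. The limit of 6.13 and 6.30 CPM applies to TUBB only if its reads could be placed at a single position. Its neighbours were nearly as empty. Within 2 Mb of TUBB lie 140 other protein-coding genes, and 1 of them had any read. This was 0.714% of the genes there, against 42.3% of all protein-coding genes and 20 to 72.5% in the same windows around the other members. The window was examined after the count of TUBB was seen.

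The region of TUBB is also present on alternate contigs of GRCh38, which are additional versions of variable regions. Among the assembled chromosomes, 95.2% of the 75-base stretches of TUBB exons occurred at a single place on either strand. With the alternate contigs included, 0 of 3775 did. Over the 140 genes around TUBB the median of this share was 100% without the contigs and 0% with them. For each of the other 9 members the share was the same in both cases, between 78.9% for TUBA1B and 100% for ACTG1, TMSB10 and CFL1. Whether the reference behind the deposited counts held these contigs is not given in the sources used here, and their part in the count of 0 was not tested.

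**Figure D2:**
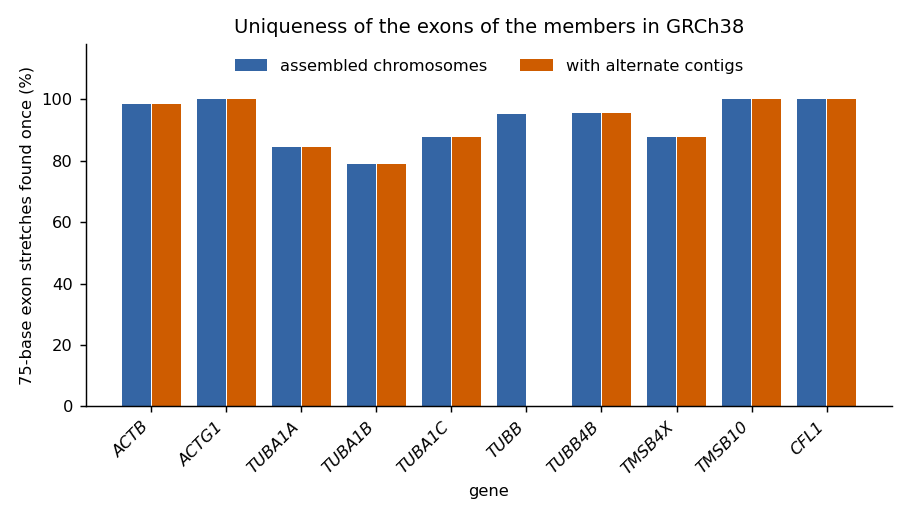
Percent of 75-base stretches of each member's exons that occur at 1 place of GRCh38, on the assembled chromosomes (blue) and with alternate contigs included (orange). TUBB falls from 95.2% to 0%, and the other 9 members keep the same value.

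TUBB4B, the other beta-tubulin (ENSG00000188229, chromosome 9, 137241287 to 137243707, plus strand), had 26 and 33 reads, 61.2 CPM ± 11.4 (SD, n = 2). Its replicates overlapped in their intervals, with a ratio of 1.30 (95% exact interval 0.757 to 2.27). None of its 8 listed pseudogenes had a read, and those of TUBB had 0 and 3 in all.

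TMSB10, a small actin-monomer-binding protein gene often raised in tumours (ENSG00000034510, chromosome 2, plus strand, 84905656 to 84906671), was covered by 249 and 135 reads. Its level was 396 CPM ± 159 (SD, n = 2). Its close relative TMSB4X (ENSG00000205542, chromosome X, 12975110 to 12977227, plus strand) had 33 and 27 reads, 62.1 CPM ± 7.59 (SD, n = 2). Per kb of exon TMSB10 was at 1104 and 615 CPM and TMSB4X at 39.6 and 33.3, so that the groups of values did not overlap and the gap between the means exceeded either SD. For TMSB4X 87.7% of the 75-base stretches of exon occurred at a single place, against 100% for TMSB10. The 6 listed pseudogenes of TMSB4X held 0 and 14 reads, all on TMSB4XP8, which is named because of its count.

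CFL1, which encodes the main non-muscle cofilin (ENSG00000172757, chromosome 11, 65823022 to 65862026, minus strand), had 75 and 45 reads, 124 CPM ± 41.6 (SD, n = 2). The ratio of replicate 2 to replicate 1 was 0.617 (95% exact interval 0.416 to 0.904). None of its 8 listed pseudogenes had a read.

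Over the 8 members with at least 10 reads, the exact interval of the replicate ratio lay below 1 for ACTG1, TUBA1C, TMSB10 and CFL1 and above 1 for TUBA1B. For TUBA1B the ratio was 2.87 (1.92 to 4.38). It included 1 for ACTB, TUBB4B and TMSB4X. Among 5764 protein-coding genes with at least 10 reads over both replicates, it lay above 1 for 33.4% and below 1 for 32.6%. The middle 50% of their ratios ran from 0.325 to 3.77, and every one of the 8 members fell within that range. The range was not matched to the members in read count. Of the 5764 genes, 988 had no read in replicate 1 and 771 none in replicate 2, whereas the 8 members had 59 to 910 reads summed. These ratios compare 2 libraries of a single condition.

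Levels of different genes are comparable only per length, so CPM was divided by the kilobases of annotated exon. On this scale TMSB10 was highest, with 860 CPM per kb ± 346 (SD, n = 2), rank 19 among protein-coding genes. ACTG1 followed with 232 ± 70.7 and ACTB with 159 ± 9.22 CPM per kb. The order of these 3 was the same in both replicates, but ACTG1 and ACTB were apart by little more than the SD of ACTG1. Next came TUBA1C with 44.5 ± 18.2, TUBA1B with 37.7 ± 25.7, TMSB4X with 36.5 ± 4.46 and TUBB4B with 30.1 ± 5.62 CPM per kb. CFL1 followed with 21.1 ± 7.09 CPM per kb. TUBA1C, TUBA1B and TMSB4X were apart by less than the SD of TUBA1B. TMSB4X was above TUBB4B in replicate 1 and below it in replicate 2, whereas TUBB4B and CFL1 were level in replicate 1, at 26.1 CPM per kb each. With the canonical transcript alone as the length, TMSB10, ACTG1 and ACTB kept their places, while TMSB4X with 99.8 CPM per kb and CFL1 with 99.6 moved above the tubulins. The order below ACTB therefore rests on which transcripts are taken to be present. The median over the 10 members was 37.1 CPM per kb, beside 6.73 for protein-coding genes with a read in both replicates.

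**Figure D3:**
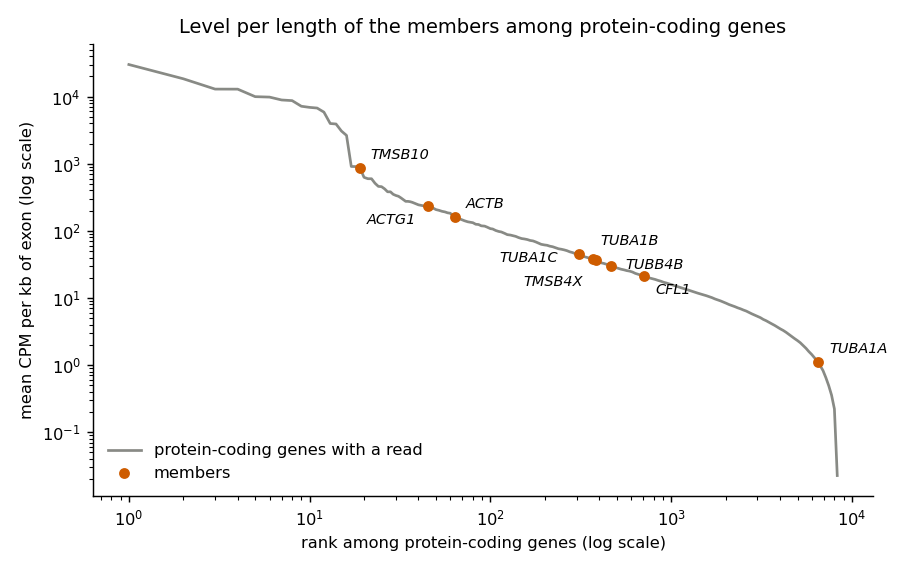
Mean CPM per kb of exon (vertical, log scale) against rank (horizontal, log scale) for protein-coding genes with a read (grey line), with the 9 members that had a read in orange. TMSB10 sits at rank 19, ACTG1 at 45, ACTB at 64, and TUBA1A at 6500.

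Of the 10 members, 8 share exon sequence with a listed gene on the other strand, as do 6713 of the 19629 protein-coding genes. The counts compared here are of whole genes, so the reads of either gene need not lie in the shared bases. Of the 8 members with such a gene in the tables, 7 had at least 10 reads on either gene, and in 6 of these 7 the opposite-strand gene had more reads summed over both replicates. Among 4024 protein-coding genes in the same position, 57.1% had more reads on the opposite gene. The 6 are not independent, since TUBA1A, TUBA1B and TUBA1C overlap genes of 1 locus. Without replicate 2 the number was 5, as TMSB10 then had the higher count. Counting every opposite-strand gene that overlaps the gene body, it was 6 of 8 members, against 52.7% of protein-coding genes.

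TUBA1B-AS1, a lncRNA gene on the plus strand from 49127782 to 49188484 of chromosome 12, had 1289 reads in replicate 1 and 1245 in replicate 2. Its exons cover 1182 bases, or 72.7%, of the canonical TUBA1B transcript on the other strand. Only 34% of the exon bases of TUBA1B-AS1 itself lie opposite TUBA1B exons. Of the reads on both genes, TUBA1B held 2.57% in replicate 1 (95% Wilson interval 1.85 to 3.57%) and 7.09% in replicate 2 (5.84 to 8.59%). The level of TUBA1B-AS1 was 2625 CPM ± 13.6 (SD, n = 2), so that its replicates were close while those of TUBA1B were far apart. The same lncRNA shares 68 bases with exons of TUBA1A, and none with its canonical transcript.

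On TUBA1C, too, an opposite-strand lncRNA gene had more reads, but the overlap was of another kind. ENSG00000258232, a lncRNA gene of 680 exon bases on the minus strand (49265156 to 49273306), lies within TUBA1C, and 97.9% of its exon sequence is opposite TUBA1C exons. It covers 23.6% of the canonical TUBA1C transcript. It had 884 and 739 reads, 1680 CPM ± 180 (SD, n = 2), and TUBA1C held 12.4% and 8.31% of the reads on both genes. Per length the contrast was larger, with 2658 and 2283 CPM per kb on the lncRNA against 57.4 and 31.6 on TUBA1C. TUBA1A and TUBA1C also overlap each other, by 345 bases of exon. Another lncRNA gene within the bounds of TUBA1C, ENSG00000258101, shares no exon base with it and had no read.

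**Figure D4:**
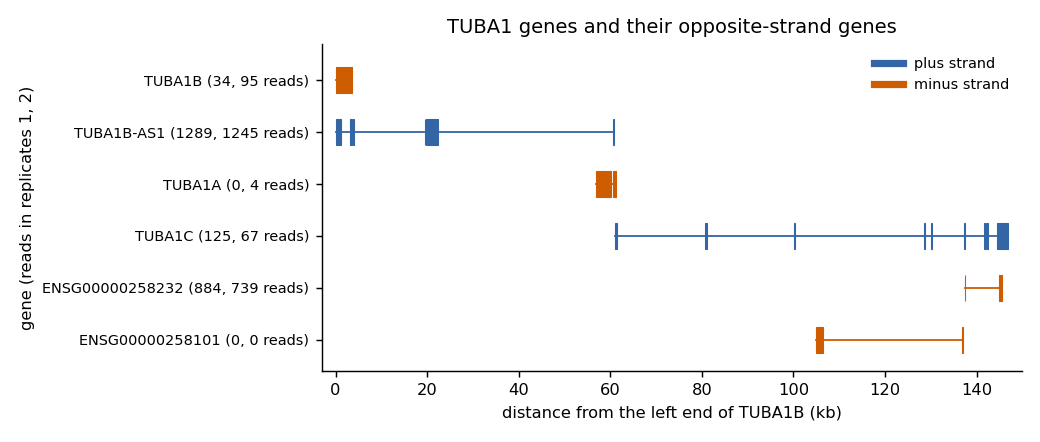
Map of the TUBA1 genes and their opposite-strand genes, in kb from the left end of TUBA1B, with exons as boxes, introns as lines and plus-strand genes in blue. TUBA1B-AS1 and ENSG00000258232, which overlap exons of TUBA1B and TUBA1C, have more reads than any of the TUBA1 genes.

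CFL1 overlaps 2 protein-coding genes of the plus strand. SNX32, which encodes a sorting nexin, shares 357 bases of exon with it and had 497 and 342 reads, so that CFL1 held 13.1% and 11.6% of the reads on both. MUS81, which encodes a DNA endonuclease, shares 759 bases with exons of CFL1 but none with its canonical transcript, and had 55 and 35 reads, fewer than CFL1 in both replicates. TUBB4B shares 124 bases with FAM166A, which had 40 and 55 reads against 26 and 33. TMSB10 lies within TRABD2A, the gene of a membrane protease that acts on Wnt proteins, with 9 shared exon bases, and TRABD2A had 219 and 419 reads against 249 and 135. The order of TMSB10 and TRABD2A was therefore reversed between the replicates. TUBB overlaps MDC1, which encodes a DNA damage mediator, and ENSG00000272540, neither with a read, and TMSB4X overlaps no gene of the other strand.

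The part of the strand setting in these counts was not tested. With the opposite setting, the values of each pair would belong to the other gene where their exons overlap.

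**Figure D5:**
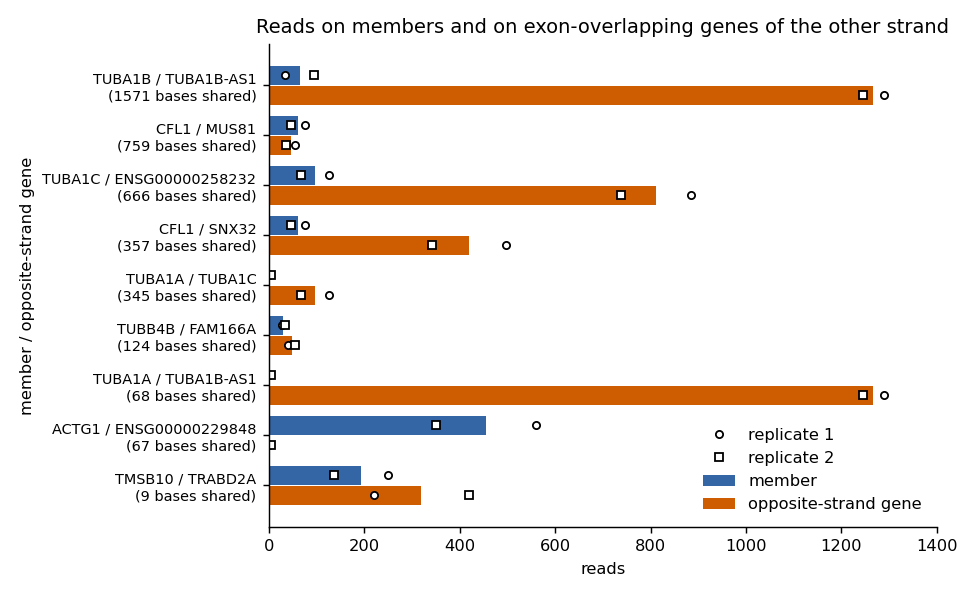
Mean reads (horizontal axis) on each member (blue) and on each opposite-strand gene that overlaps its exons (orange), with the replicates as open symbols and the shared exon bases beside the names. TUBA1B-AS1, ENSG00000258232, SNX32 and FAM166A exceed their members in both replicates, as does TUBA1C where it is drawn opposite TUBA1A. ACTG1 exceeds ENSG00000229848 and CFL1 exceeds MUS81 in both, whereas TMSB10 and TRABD2A change order.

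Genes of the wider cytoskeleton were examined in 4 lists fixed by function, 95 genes in all, of which 94 matched. At least 1 read in both replicates was found for 45 of the 94 (47.9%, against 21.9% of protein-coding genes). Among 22 actin crosslinkers, tropomyosins and myosins, 16 had a read in both replicates. So did 15 of 28 actin regulators and 10 of 20 microtubule partners. Over all matched genes of these lists, those without a read included, the median levels were 116, 15.7 and 17.9 CPM in that order. The median over all protein-coding genes was 0 CPM.

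The filamin FLNA, which links actin into networks at the membrane, had 568 and 296 reads, and MYH9, the heavy chain of non-muscle myosin IIA, had 377 and 422. Their levels were 892 CPM ± 381 for FLNA and 829 ± 82.0 for MYH9 (SD, n = 2). Per kb of exon these long transcripts reached 82.1 and 48.7 CPM, below ACTB and ACTG1. TAGLN2, a small actin-binding protein gene, stood at 83.7 CPM per kb. ACTN1 had 105 and 135 reads, TPM3 96 and 126, TPM4 144 and 67, MSN 93 and 92 and FSCN1 59 and 125. The remaining genes of this list without a read were TPM1, TPM2, ACTN4, MYH10 and MYL12B.

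PFN1, which encodes profilin and loads monomers onto growing filaments, led the regulators with 121 and 225 reads. At 225 CPM per kb ± 99.7 (SD, n = 2) it differed from ACTG1 by less than either SD. WDR1, a partner of cofilin in disassembly, had 74 and 30 reads, VASP 37 and 12, and ENAH 24 and 36. Of the Arp2/3 complex, which branches filaments, ARPC2 had 18 and 29 reads, but no other subunit had 10 in both replicates, and ARPC1A and ARPC3 had none.

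Among the microtubule partners the dynein heavy chain DYNC1H1 stood out, with 368 and 308 reads, yet at 18.0 CPM per kb its mean lay below those of TUBA1C and TUBB4B by more than their SDs, and below that of TUBA1B by less than its SD of 25.7. MAP1B had 58 and 84 reads, MAP4 12 and 67, and the dynein light chain DYNLRB1 38 and 28. TUBGCP2 and TBCB, which act in microtubule nucleation and tubulin folding, had 30 and 16 and 23 and 15 reads.

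Of 24 other genes of the members' own families, 4 had a read in both replicates, a share of 16.7% near the 21.9% of protein-coding genes. In either replicate 13 of the 24 had a read, beside 42.3% of protein-coding genes. TUBB6 had 23 and 51 reads, 77.1 CPM ± 42.5 (SD, n = 2), and TUBB4A had 18 and 17. DSTN, the other non-muscle member of the cofilin family, had 26 and 9. The muscle actins ACTA1, ACTA2, ACTC1 and ACTG2 had no read.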

How the data were processed

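RNA of PC3-EVs was sequenced as TruSeq stranded total RNA libraries in 2 biological replicates. Per the labels and the study's methods, the authors trimmed the reads, used GRCh38 as reference, and counted by HTSeq. The deposited values are unnormalised whole-number counts for each Ensembl identifier. Versions, strand setting, annotation release and reference contigs are not given in the sources used here. Files were assigned through the sample descriptions, since both titles carry EX1. The small RNA counts were not used. Some genes and sequences are not reported here.

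Counts were scaled to CPM over all gene counts, the summary rows of uncounted reads left out. Gene symbols, exons and overlaps came from GENCODE release 44 (56948 identifiers matched, 1103 did not). Shares carry 95% Wilson intervals, and replicate ratios exact (Clopper-Pearson) intervals given the summed count. Unique stretches were counted on GRCh38 on both strands by exact match within exons. With 1 condition no test between groups was made. Genes named beyond the members were opposite-strand genes and, per list, up to 8 with the highest means and at least 10 reads in both replicates, and other names were chosen after their values were seen. Members, lists and rules were chosen with earlier results of these data known. The ratio and uniqueness steps were tested on simulated data. TMM factors came from edgeR 4.0.16 in R 4.3.3, and other values from Python 3.11.15 with pandas 2.3.3, numpy 2.4.6, scipy 1.17.1, numba 0.67.0, Biopython 1.88 and matplotlib 3.10.9. Other totals, count minimums, lengths and overlaps, and each replicate left out, were tried as alternatives.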

Additional observations from a re-analysis of the deposited data

How the results depend on the processing

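No paired analysis was possible because the total RNA libraries cover 1 condition and no result comes from a test. The number of members detected stayed between 8 and 9 under other minimums and with either replicate left out. The number with more reads on an opposite-strand gene was 6 also for genes overlapping the gene body, and 5 to 6 with a replicate left out. The summed level of the members, 2622 CPM, was 2615 with TMM scaling and 2263 to 2981 with a replicate left out. It rose to 4438 with protein-coding counts as the total, and to 4782 without 7SL RNA genes, RPS29 and mitochondrial genes in the total, since those totals are smaller. Of the 94 other cytoskeleton genes, 69 had a read in either replicate and 30 at least 10 in both, and 49 to 65 had a read with a replicate left out. With the canonical transcript as length, a choice added after the data were seen, 7 of 10 levels per kb moved by over 1 SD, and 4 did with the longest transcript. Stretches of 50 or 150 bases left TUBB at 0% with alternate contigs, and put the other members at 72.9 to 99.9% and 91.4 to 100%. At this depth, a gene with no read may still have a level of up to 6.13 CPM in replicate 1 and 6.30 in replicate 2. This limit holds only where the reads of the gene can be placed at a single position.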
